A study of Mus musculus with 6 samples.

Results

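The enzymes and chaperones that make procollagen proline-hydroxylated and folded were followed across 3 groups of cultured mouse fibroblasts. They comprise 10 genes: the prolyl 4-hydroxylase subunits P4ha1, P4ha2, P4ha3 and P4hb, the prolyl 3-hydroxylases P3h1 and P3h2 with their partners Crtap and Ppib, and the folding factors Serpinh1 and Fkbp14. The members were taken by name, as every non-control array probe whose transcript accession maps to one of these symbols. That rule uses no measured value, but the members were chosen with earlier results of these data known. They held 14 of the 56605 probes and 10 of the 45616 genes on the array. All 10 passed the filter on dim signal and were among the 23060 genes tested.

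The cells were tail tissue fibroblasts of C57BL/6 mice with the genotype LH2F/F CAG-Cre, in which tamoxifen is used to delete LH2, the product of Plod2. LH2 cKO_no.1 cells had 24 h of tamoxifen followed by medium with tamoxifen. LH2 cKO_no.2 cells had 24 h of tamoxifen followed by medium without it, and control cells of the same genotype were kept in medium without tamoxifen. Each group had 2 arrays, and the groups are called no.1, no.2 and control from here on. All cells therefore carried the floxed allele and the Cre transgene, no group received tamoxifen without them, and the CAG promoter that drives Cre is active in most cell types. The labels give 24 h of tamoxifen for all 4 treated arrays, whereas the deposited file names carry 24 h for replicate 1 and 48 h for replicate 2 of both treated groups, and 0 h for both controls. If those names are right, time differs within each treated group and between all treated arrays and control, and cannot be told apart from treatment in the comparisons with control.

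Procollagen chains are modified in the endoplasmic reticulum while they are still unfolded. Prolyl 4-hydroxylase, a tetramer of catalytic alpha subunits (P4ha1, P4ha2 or P4ha3) and protein disulfide isomerase (P4hb), hydroxylates prolines in the repeating triplets, which keeps the triple helix stable at body temperature. A complex of P3h1, Crtap and cyclophilin B (Ppib) 3-hydroxylates single prolines of fibrillar collagen chains, and cyclophilin B isomerises proline bonds. The folded helix is then bound by HSP47 (Serpinh1), a collagen-specific chaperone, before it leaves the endoplasmic reticulum. Inherited loss of CRTAP, P3H1, PPIB or SERPINH1 in humans causes brittle bones, and loss of FKBP14 causes a form of Ehlers-Danlos syndrome. Fibroblasts, as the main makers of fibrillar collagen, express this machinery strongly.

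The processed signal of a probe was divided by the 75th percentile of its array and is given as a log2 level, so 0 is the 75th percentile of all probes on that array. That percentile was 95.9 and 85.0 for the no.1 arrays, 55.0 and 56.9 for no.2 and 34.1 and 33.7 for control, a difference the scaling removes. The share of probes read well above background was 53.4% to 53.5% for no.1, 48.4% to 48.6% for no.2 and 44.2% to 45.7% for control. The robust SD of the difference between the arrays of a group was 0.38 in no.1, 0.43 in no.2 and 0.14 in control, on the log2 scale. All arrays lay on 1 slide, the controls in one row and the treated arrays in the other, so slide row and treatment cannot be told apart. Nothing in the labels ties arrays to separate cultures. The p-values therefore refer to the scatter among these arrays, which may be technical, and 2 arrays a group limit their precision. Of 12 fibroblast markers, 10 were well above background on both arrays of each group, and Lum was above background on none. The summed level of that list, relative to the 75th percentile, was 2220 to 2270 in no.1, 2439 to 2816 in no.2 and 5038 to 5337 in control. Its part in the results below was not tested. For other cell types, lists of 8 markers each had 3 to 4 keratinocyte, 4 macrophage, 0 to 2 endothelial, 2 to 3 skeletal muscle and 4 to 5 chondrocyte and tendon markers well above background on both arrays of a group. Of these lists, Krt5, Krt14, Ptprc, Adgre1, Cdh5, Vwf, Myod1, Myog and Acan were not well above background on any array. Other markers of the same lists were. Cd68, Csf1r, Cd14, Itgam, Krt10, Trp63 and Itgb4 were well above background on both arrays of every group. In control so were Col2a1, Sox9, Comp, Scx and Tnmd, and Des, Acta1 and Tnnt3. Summed levels of the chondrocyte and tendon list were 4.62 to 11.2 in no.1, 15.4 to 25.8 in no.2 and 8.21 to 9.12 in control, and those of the macrophage list 28.8 to 32.8 in no.1, 30.0 to 36.8 in no.2 and 46.0 to 49.0 in control. The part of these lists in the results was not tested.

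Plod2 itself stood 4.38-fold below control in no.1 (-2.13 ± 0.34 SE in log2, with an adjusted p of 0.00613) and 5.92-fold lower in no.2 (-2.57 ± 0.34 SE in log2, with an adjusted p of 0.00767). Those folds hold for percentile scaling. Measured against spike-in RNA instead, the Plod2 change for no.1 shrank to -0.19 and was not called (adjusted p = 0.593). The change for no.2 was then -1.28, still called (adjusted p = 0.0131). A lower Plod2 level in no.1 thus depended on the scaling. The position of the Plod2 probe relative to the floxed stretch is unknown here, which leaves the deletion itself unchecked.

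Against control, with percentile scaling and its marked spot left out, P4ha2 had the log2 fold change of greatest size among the members in both treated groups, and Ppib, Crtap, Serpinh1 and P4hb were lower in no.1. With that spot kept, P4ha2 stood at 0.27 in no.1, and relative to spike-in controls it had the change of smallest size in both groups. The promoters of P4ha2, of P4ha1 (the alpha subunit whose main probe was not called in either contrast), of Ppib and of Serpinh1 are shown as examples of members with and without a call. The response of 1 gene was not compared with that of another, and any part of these sequences in the changes was not tested. Hypoxia is a known inducer of P4ha1 and P4ha2, and the capitals mark each match to the hypoxia response cores ACGTG and GCGTG on either strand. The sequences are RefSeq promoters of build GRCm38.p6, 250 bases up to the transcription start, read 5′ to 3′ on the strand of the gene. They cover chr11:54100674-54100923 (plus strand) for P4ha2, chr10:59323046-59323196 (plus strand) for P4ha1, chr9:66059919-66060168 (plus strand) for Ppib and chr7:99353240-99353489 (minus strand) for Serpinh1. For P4ha1 the bases that lie inside the annotated gene are not shown.
P4ha2: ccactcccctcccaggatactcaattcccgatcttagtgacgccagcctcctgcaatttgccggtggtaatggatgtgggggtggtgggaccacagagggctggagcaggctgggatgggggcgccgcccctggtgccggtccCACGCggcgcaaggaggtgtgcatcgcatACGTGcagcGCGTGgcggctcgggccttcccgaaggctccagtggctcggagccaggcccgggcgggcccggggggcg
P4ha1: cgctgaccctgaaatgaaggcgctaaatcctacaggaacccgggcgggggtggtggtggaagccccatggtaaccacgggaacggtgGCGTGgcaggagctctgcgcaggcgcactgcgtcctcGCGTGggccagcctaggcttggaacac
Ppib: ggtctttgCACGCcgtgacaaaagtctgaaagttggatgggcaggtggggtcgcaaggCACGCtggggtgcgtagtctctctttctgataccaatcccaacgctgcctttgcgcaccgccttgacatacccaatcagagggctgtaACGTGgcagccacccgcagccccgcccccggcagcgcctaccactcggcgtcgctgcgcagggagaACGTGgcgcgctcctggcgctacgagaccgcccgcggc
Serpinh1: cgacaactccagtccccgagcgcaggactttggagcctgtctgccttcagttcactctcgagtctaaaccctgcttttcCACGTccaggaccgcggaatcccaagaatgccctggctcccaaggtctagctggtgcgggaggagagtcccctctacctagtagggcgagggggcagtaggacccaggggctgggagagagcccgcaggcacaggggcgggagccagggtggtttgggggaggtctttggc
The 250-base windows held 3 matches for P4ha2, 3 for P4ha1 (1 of them in the part not shown), 4 for Ppib and 1 for Serpinh1, with 0 overlapping matches. The 2 cores are short and common: ACGTG occurred in 16.6% and GCGTG in 28.2% of 32851 promoters of the same length. Among the 9 members with a promoter entry, ACGTG occurred in 5 (P4ha1, P4ha2, P4hb, Ppib and Serpinh1) and GCGTG in 6 (Crtap, P3h1, P4ha1, P4ha2, P4hb and Ppib). The heat shock element and the unfolded protein element TGACGTGG were in 0 of the 9 member promoters and in 0.466% and 0.563% of all promoters. The GC box GGGCGG was in 7 of the 9 and in 32.7% of all, and the CCAAT box in 3 of the 9 and in 33.8% of all. A match describes the letters only.

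P4ha2 encodes the second catalytic alpha subunit of prolyl 4-hydroxylase, which is prominent in cartilage and bone-forming cells. Its single probe had a log2 level of 4.45 on the first no.1 array. It stood at 4.75 and 4.28 in no.2, against 6.22 and 6.25 in control. Each usable treated array lay below both controls, by more than a log2 unit. The level in no.1, from 1 usable array, was 3.46-fold lower than in control (-1.79 ± 0.30 SE in log2, with an adjusted p of 0.00925). That array is assumed to vary like those of the other groups, from which the SE and p take their spread. In no.2 it was 3.30-fold lower (-1.73 ± 0.25 SE in log2, with an adjusted p of 0.0121).

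The second no.1 array has no usable P4ha2 value, because the scanner software marked its spot as non-uniform. The spot read 32408 in processed signal, with a scanner error of 7029, while the median of its pixels was 6007.5. On the 5 unmarked arrays the processed signal was 2093.2 in no.1, 1479.3 and 1104.4 in no.2, and 2549.1 and 2572.5 in control, and the median pixel stood close to it on each. The marked spot was the only spot of its probe on that array, so P4ha2 was fitted on 5 arrays. When the marked spot was kept, the no.1 value turned to a log2 fold change of 0.27 (adjusted p = 0.864) and the no.2 call was lost at the same fold change (-1.73, adjusted p = 0.305). The authors' deposited value table holds the marked spot at 25795, against 1294.8 for the other no.1 array, 1580.0 and 1285.6 for no.2, and 3758.0 and 3681.5 for control. That table gave a P4ha2 change of 0.64 for no.1 (adjusted p = 0.709), while the change for no.2 was -1.38 (adjusted p = 0.451).

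**Figure D1:**
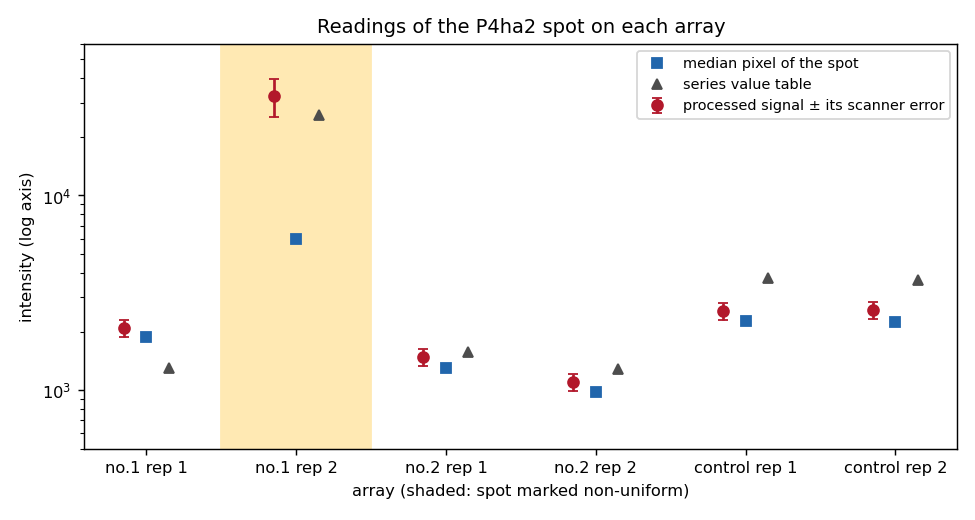
Readings of the P4ha2 spot on the 6 arrays (no.1, no.2, control), with intensity on a log axis. Circles are the processed signal with its scanner error, squares the median pixel and triangles the deposited value table; on the shaded array (no.1 replicate 2), marked non-uniform, the processed signal of 32408 stands far above the median pixel of 6007.5, while the other arrays lie between 976.0 and 3758.0.

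P4ha1 encodes the alpha subunit found in most cells. Its brighter probe had log2 levels of 1.87 and 1.60 in no.1, 1.72 and 1.79 in no.2, and 1.84 and 2.04 in control. The no.1 arrays overlapped the controls, and the changes of -0.20 in no.1 (± 0.20 SE, adjusted p of 0.433) and -0.18 in no.2 (± 0.20 SE, adjusted p of 0.520) did not pass. Its dimmer probe read 0.69 and 0.45 in no.1, 0.75 and 0.36 in no.2, and 1.22 and 1.26 in control, with every treated array below both controls. In the fit over all 29681 probes that passed the filter, this probe fell by 0.67 in no.1 (± 0.22 SE, adjusted p of 0.0496), and its value of -0.68 in no.2 did not pass (± 0.22 SE, adjusted p of 0.0659). The probes of P4ha1 thus disagree on the call, where 24.6% of all probes were called lower in no.1 and 14.7% in no.2.

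P4ha3, an alpha subunit with a narrow tissue range, was dim. Its brighter probe had log2 levels of -1.55 and -2.23 in no.1, -1.85 and -1.24 in no.2, and -2.07 and -2.08 in control. Both no.2 arrays lay above the controls and the no.1 arrays on either side of them, and neither the change of 0.18 in no.1 (± 0.32 SE, adjusted p of 0.655) nor that of 0.53 in no.2 (± 0.32 SE, adjusted p of 0.239) passed. The other P4ha3 probe was well above background on the first no.1 array and the second no.2 array only, and was not tested.

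P4hb, the beta subunit that keeps the alpha subunits soluble and is also a disulfide isomerase, had log2 levels of 4.81 and 4.62 in no.1, 4.94 and 4.99 in no.2, and 5.38 and 5.43 in control. The groups did not overlap. P4hb stood 1.61-fold below control in no.1 (-0.69 ± 0.19 SE in log2, with an adjusted p of 0.0273), and its value of -0.44 in no.2 did not pass (± 0.19 SE, adjusted p of 0.123).

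P3h1, the catalytic subunit of the 3-hydroxylation complex, had log2 levels of 1.69 and 1.28 in no.1, 1.64 and 1.63 in no.2, and 1.80 and 1.79 in control on its brighter probe. All treated arrays lay below both controls, by small amounts, and the changes of -0.31 in no.1 (± 0.21 SE, adjusted p of 0.271) and -0.16 in no.2 (± 0.21 SE, adjusted p of 0.586) did not pass. Its dimmer probe gave -0.42 for no.1 (adjusted p = 0.215) but 0.20 for no.2 (adjusted p = 0.567), so the probes differed in direction in no.2.

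Crtap, the non-catalytic subunit that stabilises P3h1, had log2 levels of 4.60 and 4.31 in no.1, 4.50 and 4.89 in no.2, and 5.16 and 5.21 in control. Every treated array lay below both controls. Crtap stood 1.65-fold below control in no.1 (-0.73 ± 0.23 SE in log2, with an adjusted p of 0.0411), while -0.49 in no.2 did not pass (± 0.23 SE, adjusted p of 0.149).

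Ppib, the proline isomerase of the same complex, had log2 levels of 5.76 and 5.66 in no.1, 6.23 and 6.01 in no.2, and 6.64 and 6.64 in control. The 3 groups stood apart in that order, with the control arrays highest. Ppib stood 1.91-fold below control in no.1 (-0.94 ± 0.19 SE in log2, with an adjusted p of 0.0117). The value of -0.52 in no.2 had an unadjusted p of 0.0340 and an adjusted p of 0.0861 and was not called.

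P3h2, which acts mainly on basement membrane collagen IV, was near the detection limit. Its log2 levels were -3.47 and -2.83 in no.1 cells and -2.59 and -1.99 in no.2 cells, against -2.75 and -2.90 in control, where it was not well above background on either array. The changes of -0.33 in no.1 (± 0.31 SE, adjusted p of 0.408) and 0.53 in no.2 (± 0.31 SE, adjusted p of 0.229) did not pass. Without no.2 replicate 1 or 2 the change in no.2 was 0.83 or 0.24. Quantile normalization gave 0.75 for no.2, and normexp background correction turned it to -0.19. Because the control readings lay so near background, no fold is given for either group.

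Serpinh1, the collagen-specific chaperone HSP47, had log2 levels of 7.67 and 7.37 in no.1, 8.05 and 7.73 in no.2, and 8.21 and 8.23 in control. All 4 treated arrays lay below both controls, and no.2 replicate 1 lay nearest to them. Serpinh1 stood 1.62-fold below control in no.1 (-0.70 ± 0.22 SE in log2, with an adjusted p of 0.0418), and -0.33 in no.2 did not pass (± 0.22 SE, adjusted p of 0.281).

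Fkbp14, a proline isomerase of the endoplasmic reticulum that acts on collagen, had log2 levels of 2.12 and 2.30 in no.1, 2.27 and 3.10 in no.2, and 2.58 and 2.55 in control. The no.2 arrays lay on either side of the controls and differed from each other by 0.82, the widest gap among the members within a group. The changes of -0.36 in no.1 (± 0.30 SE, adjusted p of 0.354) and 0.12 in no.2 (± 0.30 SE, adjusted p of 0.784) did not pass. A second, dimmer Fkbp14 probe was well above background only in no.1, at least 1.32-fold higher there than in no.2 (adjusted p = 0.345 in the fit over probes, not called).

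**Figure D2:**
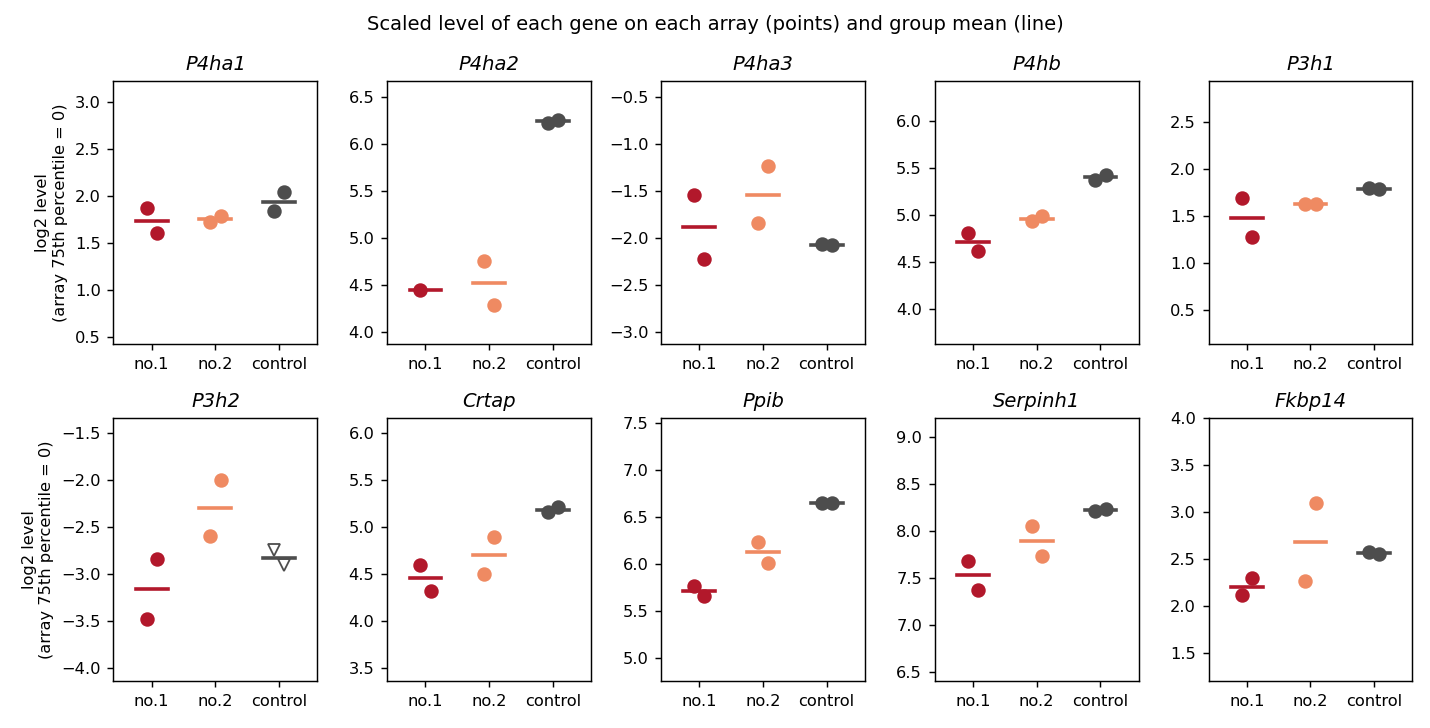
Log2 level of each of the 10 genes on each array (points; 0 is the 75th percentile of the array) with the group mean (line), for no.1, no.2 and control; all panels span the same number of log2 units, and open triangles are readings not well above background. P4ha2, P4hb, P3h1, Crtap, Ppib and Serpinh1 lie below both control points on every usable treated array.

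Over the members as a whole, 5 of 10 were called lower in no.1 than in control (P4ha2, from 1 no.1 array, and P4hb, Crtap, Ppib and Serpinh1) and 0 higher. Of all genes tested, 26.4% were called lower and 21.4% higher in that comparison. Their median log2 fold change was -0.52, against -0.12 over all genes. In 7 of 10 members each no.1 array lay below each control array, as it did in 44.7% of all genes, and in 0 members above each control array, as in 36.7% of all genes. In no.2, 1 of 10 was called lower than in control (P4ha2) and 0 higher, against 16.2% lower and 12.1% higher over all genes. The members' median there was -0.26, against -0.10 over all genes. The order of these medians depended on the setting. With normexp background correction the members' median was -0.056 in no.1, against -0.23 over all genes, and -0.063 in no.2, against -0.12. With no filter on dim probes it was -0.52 in no.1, against -0.84 over all genes, and -0.26 in no.2, against -0.56. In 7 members the no.2 arrays lay below the controls and in 2 above, against 41.3% and 33.2% of all genes. The comparisons share the control arrays. With 10 genes, these counts describe the members and were not tested as a set.

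The count in no.1 rests on few arrays. Leaving out control replicate 1 or 2 left 1 of 10 called lower (P4ha2), with 12.5% or 12.7% of all genes called lower, and averaging both into 1 sample also left 1 (P4ha2, adjusted p = 0.0449), with 11.2% of all genes. The members' share then stood near that of all genes. Without no.1 replicate 1 only Ppib was called (adjusted p = 0.0474), since P4ha2 then has no no.1 value, and without no.1 replicate 2 Ppib and P4ha2 were. Of all genes, 11.7% and 19.7% were called lower in those fits. In no.2, the P4ha2 call was lost without control replicate 1 (adjusted p = 0.0579) or 2 (adjusted p = 0.0653) and with the controls averaged (adjusted p = 0.0661). Those fits called 3.86%, 3.45% and 2.90% of all genes lower.

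**Figure D3:**
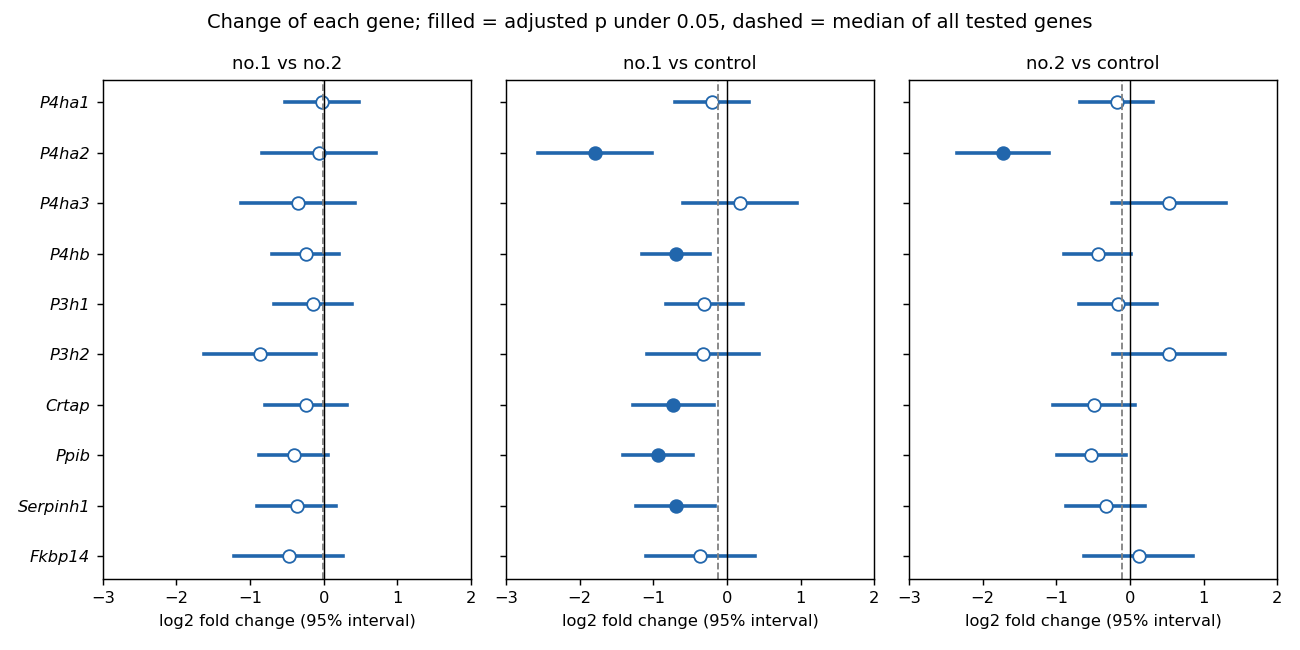
Log2 fold change of each of the 10 genes with its 95% interval (limma, all 6 arrays) for no.1 against no.2, no.1 against control and no.2 against control; filled points have an adjusted p under 0.05 and the dashed line is the median of all tested genes. Filled points lie at -1.79 (P4ha2), -0.94 (Ppib), -0.73 (Crtap), -0.70 (Serpinh1) and -0.69 (P4hb) in no.1, and at -1.73 (P4ha2) in no.2.

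The series names the comparison of no.1 with no.2, which differ in whether tamoxifen stayed in the medium. None of the 10 members was called (0 of 23060 genes, 0%, passed limma's adjusted threshold, with 3826 genes at an unadjusted p under 0.05). All 10 members had a log2 fold change below 0, with a median of -0.30 against -0.011 over all genes. In 4 of 10 (P4hb, P3h2, Ppib and Serpinh1) each no.1 array lay below each no.2 array, as it did in 25.3% of all genes, and in 0 members above, as in 22.5%. P3h2 was the member with an unadjusted p under 0.05, at -0.86 (SE 0.31, 95% interval -1.62 to -0.10, adjusted p = 0.283). The intervals here take their spread from all 3 groups, and control scattered least for P3h2 (SD 0.11, against 0.45 in no.1 and 0.42 in no.2). With no.1 and no.2 alone in the limma fit, its adjusted p was 0.435. Ppib differed by -0.41 (95% interval -0.88 to 0.059) and Serpinh1 by -0.37 (95% interval -0.90 to 0.17). P4ha1 differed by -0.024 (95% interval -0.52 to 0.47), and P4ha2 by -0.067 (95% interval -0.84 to 0.70, from 1 no.1 array).

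The direction of most changes depended on what the arrays were scaled to. In processed signal before scaling, 9 of 10 members read higher on all usable treated arrays than on both control arrays, and P4ha2 read lower on all 3 usable ones. Serpinh1, for example, read 19589 and 14105 in no.1, 14585 and 12076 in no.2, and 10127 and 10111 in control. The share of all genes with that order was not counted. The percentile used for scaling was itself higher on treated arrays, at 55.0 to 95.9, against 33.7 and 34.1 in control. A higher unscaled reading therefore does not set the members apart from other genes. Relative to the arrays' spike-in controls (7 probes for RNA added in fixed amount), the median of all genes rose by 1.82 in no.1 and by 1.18 in no.2 against control, and the members' medians were 1.41 and 1.03. Under that scaling 9 members were called higher in no.1, as were 82.3% of all genes, and 8 in no.2, as were 65.2%, with 0 members lower, while P4ha2 stood at 0.17 for no.1 (adjusted p = 0.624) and at -0.44 for no.2 (adjusted p = 0.175). Both scalings subtract a constant from each array, so by construction a gene measured on all arrays keeps its distance from the median of all genes. That distance was -0.82 for Ppib and -1.68 for P4ha2 in no.1 and -1.62 for P4ha2 in no.2 with percentile scaling. With normexp, which is no constant shift, it was -0.043 for Ppib and -0.81 for P4ha2 in no.1 and -1.18 for P4ha2 in no.2. After scaling to the median probe, P4ha1 and P3h1 turned to values above 0 in both treated groups, and after quantile normalization Serpinh1 did in no.2, none of them called. With normexp, P4ha2 alone of the 5 kept its call in no.1 (-1.04, adjusted p = 0.0109). The values of the other 4 there were -0.27 for Ppib (adjusted p = 0.0634), -0.060 for Crtap (adjusted p = 0.770), -0.052 for P4hb (adjusted p = 0.677) and 0.036 for Serpinh1 (adjusted p = 0.864). The dim genes P3h2 (-0.58, adjusted p = 0.00325) and P4ha3 (-0.36, adjusted p = 0.0315) were called lower instead, as were 44.8% of all genes. In processed signal both read higher on all 4 treated arrays than on both control arrays. Their processed signals, at most 14.3 for P3h2 and 32.7 for the brighter P4ha3 probe, lay below the offset that normexp adds. The part of that offset in these calls was not tested. In no.2, normexp gave -1.30 for P4ha2 (adjusted p = 0.0156) and 0.11 for Serpinh1.

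**Figure D4:**
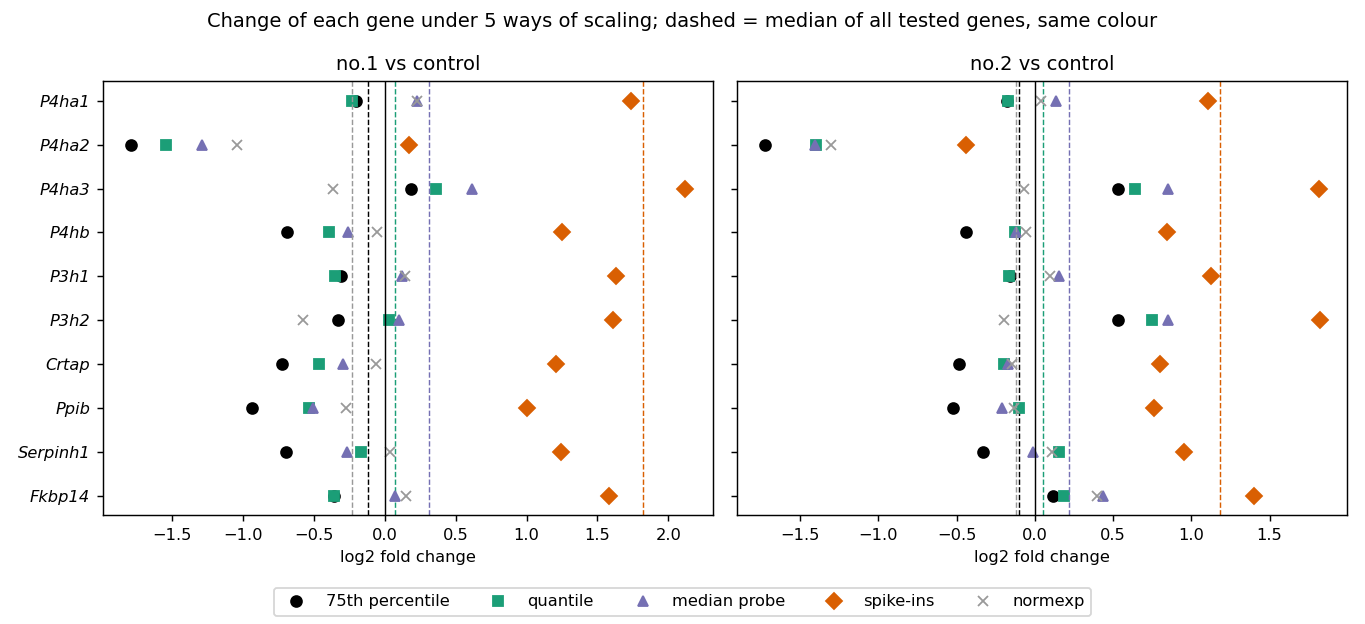
Log2 fold change of each of the 10 genes in no.1 against control and no.2 against control under 5 ways of scaling or background correction (symbols), with the median of all tested genes under each as a dashed line of the same colour. Spike-in scaling moves all genes to the right, to medians of 1.82 and 1.18, and P4ha2 lies left of the dashed line of its own colour under each.

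Other genes of collagen biosynthesis, from lists of fixed membership, were set beside the members. Their counts stand beside the 26.4% of all genes called lower and 21.4% called higher in no.1, and the 16.2% and 12.1% in no.2, and none was tested as a list. Among 8 tested genes of lysyl hydroxylation and galactosylation, 7 were called lower in no.1 than in control and 0 higher, with a median of -1.05. The 8 and the 7 include Plod2, the targeted gene. P3h4, which forms a complex with lysyl hydroxylase 1, fell by 1.65 (adjusted p = 0.00295), Plod3, which also transfers glucose to collagen, by 1.59 (adjusted p = 0.00326) and Plod1, the helical lysyl hydroxylase, by 1.35 (adjusted p = 0.00546). In no.2, 3 of the 8 were called lower (Plod2, P3h4 at -1.24 and Plod3 at -1.23). Under spike-in scaling P3h4, Plod3 and Plod1 stood at 0.29, 0.34 and 0.59 in no.1, none of them called.

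Of 16 general chaperones of the endoplasmic reticulum, 4 were called higher and 2 lower in no.1 against control, with a median of -0.16, against -0.12 over all genes. These counts are near or below the shares of all genes. Sil1, the nucleotide exchange factor of BiP, fell by 1.80 (adjusted p = 0.00317), the lectin chaperone Canx rose by 0.92 (adjusted p = 0.0171) and the HSP90 of the endoplasmic reticulum, Hsp90b1, rose by 0.74 (adjusted p = 0.0344). In no.2, 1 was called, lower (Sil1, -1.07). Of 5 other proline isomerases, Ppic (cyclophilin C) alone was called, at 1.49 in no.1 (adjusted p = 0.0151). Of 12 other disulfide isomerases and oxidases, 1 was called higher and 3 lower in no.1, among them the oxidase Ero1a (-0.90), the disulfide isomerase Txndc5 (-0.74) and Tmx1 (0.88). Ero1a was the 1 called in no.2 (-1.37).

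The genes that act after folding were taken next. Of 17 procollagen export genes, 5 were called higher and 1 lower in no.1. The COPII coat gene Sec23b and Tfg, which organises exit sites, rose by 0.95 and 1.01, and Creb3l1, a transcription factor that drives secretory genes in collagen-producing cells, fell by 1.50. In no.2, the coat genes Sec24d and Sec31a rose by 1.12 and 0.76, with 0 called lower. Of 7 procollagen processing genes, 4 were called lower and 0 higher in no.1. Adamts2, the amino-propeptide protease, fell by 6.59 in no.1 (adjusted p = 0.000670) and stood at -5.78 in no.2 (adjusted p = 0.00145). Its mean log2 level was 4.36 in control but a dim -2.23 in no.1 and -1.42 in no.2, which limits the precision of these folds. Pcolce, the enhancer of the carboxy-propeptide protease, fell by 1.02 in no.1. Tll1, a protease of the same kind, stood at -1.16 in no.1 and at 1.63 when all its probes were averaged, so its probes disagree in direction. In no.2, 1 was called higher (Adamts14, another amino-propeptide protease, 0.77) and 2 lower.

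Of 15 procollagen chain genes, the substrates of the members, 2 were called higher and 1 lower in no.1 (Col11a1 at 2.69, Col6a3 at 1.08 and Col5a3 at -3.01). In no.2, 2 were called higher (Col11a1 at 3.58 and Col6a3 at 1.00) and 0 lower. The other 2-oxoglutarate hydroxylases that share the catalytic chemistry of the members gave 1 higher and 4 lower of 6 in no.1. Egln3, an oxygen sensor of the hypoxia response, rose by 2.65, and P4htm and Ogfod2 fell by 2.25 and 2.12. In no.2 Egln3 rose by 2.17, Ogfod2 fell by 1.64 and P4htm by 1.32. Of 18 hypoxia-inducible genes, 2 were called higher and 4 lower in no.1 (Kdm3a at 1.30, Adm at -2.32 and Car9 at -1.54 among them). In no.2 the counts were 2 higher and 5 lower (Pfkfb3 at -1.21, Adm at -2.07 and Higd1a at -1.87 among them). In no list was a gene called between no.1 and no.2. The genes of lowest p there were P3h3 (-0.69), Ppic (0.48), Ero1a (0.48), Sil1 (-0.73), Creb3l1 (-1.01), Pcolce (-0.60), Col6a1 (-1.20), P4htm (-0.93) and Bnip3 (0.48).

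The counts for these lists also depended on the scaling and on the control arrays. Under spike-in scaling Sil1, Ero1a, Txndc5, Creb3l1, Pcolce, Tll1 and Car9 stood above 0 in no.1, and Adamts2 still fell, by 4.65 (adjusted p = 0.000395). With both control arrays averaged into 1 sample, folds stayed as given and fewer list genes were called in no.1. Fewer of all genes were called there as well, so the shares set beside the lists above do not apply to that fit. Of the no.1 calls named above, Canx, Hsp90b1, Ppic, Ero1a, Txndc5, Tmx1, Sec23b, Tfg, Pcolce, Tll1, Col6a3 and Car9 were lost. The list genes still called in no.2 with that averaging were Plod2, Ogfod2 and Adamts2, lower, and Col11a1 and Egln3, higher. The other no.2 calls named above, P3h4, Plod3, Sil1, Ero1a, Sec24d, Sec31a, Adamts14, Col6a3, P4htm, Adm, Pfkfb3 and Higd1a, were lost there, with folds as given.

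**Figure D5:**
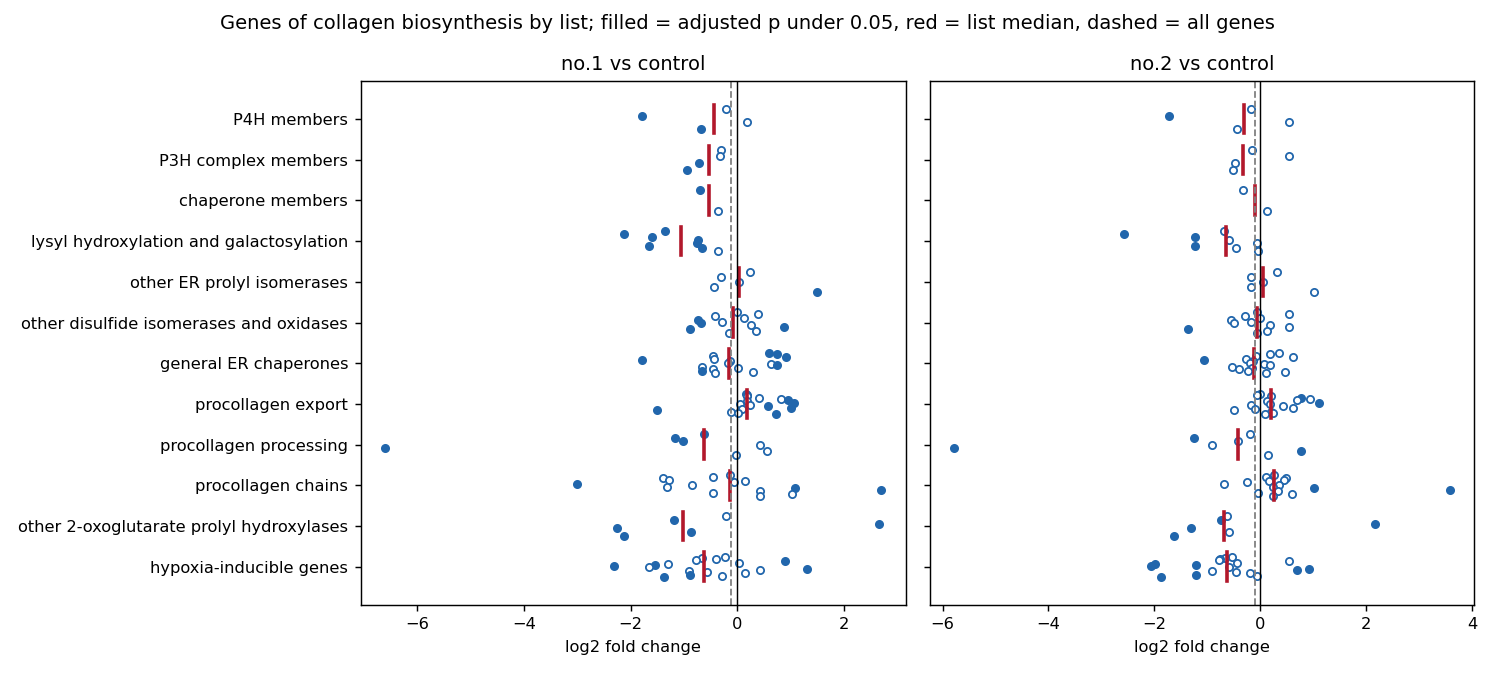
Log2 fold change of each tested gene of the members and of 9 lists of collagen biosynthesis and related genes, in no.1 against control and no.2 against control; filled points have an adjusted p under 0.05, the red bar is the median of the list and the dashed line the median of all genes. The lysyl hydroxylation list, with a median of -1.05 in no.1, lies left of the dashed line. In no.1 alone, the general chaperone and export lists hold filled points on both sides.

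Correlations between members are given as a description, over arrays that share a scaling and hold the group differences already reported. Over the 6 arrays Pearson's r was 0.97 between P4hb and Ppib, 0.96 between Ppib and Serpinh1 and 0.95 between P4hb and Crtap. Members that were not called gave r of 0.85 (P3h1 with P4ha1) and 0.84 (P3h2 with Fkbp14), while Fkbp14 gave 0.17 with Serpinh1 and 0.16 with P4ha1. Among the 12073 named genes that every array read well above background, those whose level was most like that of Serpinh1 were Rnf180 (r = 0.99), Chrna2, Irf2bp1, 2810408A11Rik and Lrp5. Those most like the brighter probe of P4ha1 were Gfy (r = 0.99), Klhl18, Ttll11, Rps15a-ps6 and Tomt, at r of 0.95 or more over 6 arrays. For Serpinh1, 3 genes exceeded an r of 0.99, and for P4ha1 0 did.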

How the data were processed

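Cy3-labelled RNA of 6 fibroblast samples, in 3 groups of 2, was measured on Agilent 1-colour arrays. The deposited scanner output holds intensity values, written by Feature Extraction 12.1.1.1 per the file headers, although the submitters' processing notes give 9.5.1.1. The headers record background subtraction and spatial detrending inside each array and no step between arrays. A deposited table of intensity values has no stated processing. At least 99.97% of its entries lay within 1% of quantile-normalized processed intensities, its column median was 5.16 on every array, and 0 of its columns lacked a sample.

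Each value is the log2 processed signal less the 75th percentile of its array, computed from the deposited intensities. Spots carrying an outlier flag were dropped, so a probe with a single, flagged spot is missing on that array. Symbols came from a RefSeq table of GRCm38.p6, used for names alone because the headers name a different build, and 58.3% of probes gained one. The brightest probe on average stood for its gene, and a gene entered the test if both arrays of any group read that probe well above background. The lmFit and eBayes functions of limma 3.58.1 (R 4.3.3) were run on 6 arrays with 3 group means, and p-values were adjusted by Benjamini-Hochberg over 23060 genes and called under 0.05. Every adjusted p in the text is limma's. The fit was tested on simulated data. Mean pixel signals were not in the files, so normexp (offset 50) ran on median pixel and background signals in place of the planned mean.

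The members, gene lists and alternatives were chosen with earlier results of these data known. Named genes are the 10 members, Plod2, up to 3 called genes of each list by lowest p (otherwise the 1 of lowest p), and the 5 genes most correlated with Serpinh1 and with P4ha1. Alternatives were other scalings, normexp, the deposited value table, 2 other filters, the mean of all probes, the 2 groups alone, the replicate block, averaged controls and leaving out each array. Keeping outlier-flagged spots was added after seeing the data.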

Additional observations from a re-analysis of the deposited data

Results flagged for a closer look

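P4ha2 read 32408 in processed signal on the second no.1 array, a value outside the comparisons because the scanner software marked the spot as non-uniform. It stood above both control readings of 2549.1 and 2572.5, whereas the other usable treated arrays read below them. Its median pixel of 6007.5 also lay above the control medians of 2265.0 and 2251.0. The probe has 1 spot per array, so no second reading on that array can be set beside it.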

How the results depend on the processing

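The count of 5 members called lower in no.1 against control was 5 without a filter on dim probes, with the mean of all probes and with 2 groups in the fit, and 4 with the marked spot kept or with probes well above background on all arrays (P4ha2 is then not tested). It was 3 with normexp (P4ha2 of the 5, with P3h2 and P4ha3), 2 with quantile normalization (P4ha2 and Ppib), 1 with the median probe and with averaged controls (P4ha2), 1 with the value table (Ppib), and 0 with spike-ins. Leaving out 1 array gave 1 to 5. The count of 1 in no.2 became 0 with spike-ins, the value table, averaged controls, the marked spot kept and the filter on all arrays, and 0 to 1 on leaving out 1 array. Of all genes, 32.8% were called higher and 14.3% lower in no.1 with the median probe, and 25.2% higher and 44.8% lower with normexp. Without the filter 43.3% were called lower there, with the mean of all probes 26.9% and with 2 groups 29.7%. The share lower was 32% with the filter on all arrays, 21.8% with quantile normalization and 21.7% with the value table. With the marked spot kept it was 26.4%, and with spike-ins 1.83%. The members' counts in no.1 thus stood near the share of all genes without the filter and with quantile normalization, the median probe and spike-ins. They stood below it with normexp and the value table. With the mean of all probes, 2 groups, the marked spot kept and the filter on all arrays they stood above it. In no.2 the share lower was 2.32% with spike-ins, 13.3% with the value table, 16.2% with the marked spot kept and 20.5% with the filter on all arrays. Members called higher became 9 in no.1 and 8 in no.2 with spike-ins. No alternative called a member between no.1 and no.2. The replicate block left 2 lower in no.1 (Ppib and P4ha2) and 1 in no.2, where 25.2% and 14.8% of all genes were called lower, and changed no direction. P4hb, Serpinh1 and Crtap then had adjusted p of 0.0507, 0.0526 and 0.0628 in no.1. Whether equal numbers pair the samples is not established: with 2 arrays a group, the correlation of replicate 1 minus replicate 2 over 22752 probes was 0.196 between no.1 and no.2, -0.0504 between no.1 and control and -0.00386 between no.2 and control.

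Reversed log2 fold changes with spike-ins were, in no.1 against control, Crtap 1.21, Fkbp14 1.58, P3h1 1.63, P3h2 1.61, P4ha1 1.73, P4ha2 0.17, P4hb 1.25, Ppib 1.00, Serpinh1 1.24, Car9 0.40, Creb3l1 0.43, Ero1a 1.04, P3h4 0.29, Pcolce 0.91, Plod1 0.59, Plod3 0.34, Sil1 0.14, Tll1 0.78 and Txndc5 1.20. In no.2 against control they were Crtap 0.80, P3h1 1.13, P4ha1 1.10, P4hb 0.85, Ppib 0.76, Serpinh1 0.95, P3h4 0.044, Pfkfb3 0.072, Plod3 0.051, Sil1 0.22 and Tll1 0.036. In no.1 against no.2 they were Crtap 0.41, Fkbp14 0.17, P3h1 0.50, P4ha1 0.63, P4ha2 0.61, P4ha3 0.30, P4hb 0.40, Ppib 0.24, Serpinh1 0.29 and Pcolce 0.055. Spike-in scaling moved the median of all genes by the amounts given above.

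Reversals with normexp were, in no.1 against control, Fkbp14 0.15, P3h1 0.14, P4ha1 0.23, P4ha3 -0.36, Serpinh1 0.036 and Tll1 0.50, in no.2 against control, P3h1 0.099, P3h2 -0.19, P4ha1 0.037, P4ha3 -0.071, Serpinh1 0.11 and Tll1 0.19, and in no.1 against no.2, Crtap 0.087, P3h1 0.043, P4ha1 0.19, P4ha2 0.26, P4hb 0.0031 and Plod2 -0.12. With the median probe they were Fkbp14 0.072, P3h1 0.12, P3h2 0.10 and P4ha1 0.23 in no.1 against control, P3h1 0.16 and P4ha1 0.14 in no.2 against control, and P4ha1 0.090 and P4ha2 0.12 in no.1 against no.2. Quantile normalization turned P3h2 to 0.030 in no.1 and Serpinh1 to 0.16 in no.2. The value table turned P3h2 to 0.031 and P4ha2 to 0.64 in no.1, Serpinh1 to 0.16 in no.2, and P4ha2 to 2.02 in no.1 against no.2. The marked spot kept turned P4ha2 to 0.27 in no.1 against control and 2.00 against no.2. The mean of all probes turned Tll1 to 1.63 in no.1, Fkbp14 to -0.57, P3h1 to 0.021 and Tll1 to 1.15 in no.2, and Fkbp14 to 0.46 in no.1 against no.2.

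Leaving out 1 array gave P4ha3 -0.16 to 0.52 in no.1 against control, Fkbp14 -0.29 to 0.53 in no.2 against control, and, in no.1 against no.2, P3h1 -0.35 to 0.058, P4ha1 -0.16 to 0.11 and P4ha2 -0.30 to 0.17. Beyond the shift by scaling and the marked spot, the cause of these changes was not tested. P4ha3, P3h2 and the second Fkbp14 probe lay near background, which limits their precision. Among the list genes, Adamts2, P4htm, Tll1 and Car9 were dim in the treated groups, which limits the precision of their folds.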
